A study of Mus musculus with 12 samples.

Results

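Genes of the mouse major histocompatibility complex (MHC) and of peptide loading were followed in colonic monolayers grown in vitro and in colonic crypts. The genes were the 51 of 23420 in the count tables whose symbol starts with H2-, the prefix of the mouse MHC, or is B2m, Tap1, Tap2, Tapbp, Nlrc5, Ciita or Cd74. They fell into 3 classical class I genes, 29 nonclassical class I genes, 12 class II genes with Ciita and Cd74 among them, and 5 genes of class I loading and control. The remaining 2, H2-Ke2 and H2-Ke6, lie in the region but encode a prefoldin subunit and a hydroxysteroid dehydrogenase.

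Classical class I molecules (H2-K, H2-D and, in some strains, H2-L) show peptides from inside the cell to CD8 T cells, and nearly every nucleated cell makes them. Each needs beta-2 microglobulin (B2m), the peptide pump formed by Tap1 and Tap2, and tapasin (Tapbp), which holds the empty chain at the pump. Nonclassical chains of the H2-Q, H2-T and H2-M groups are less variable and bind receptors of natural killer cells or of unusual T cells, many of them resident in gut epithelium. Class II molecules show peptides from outside to CD4 T cells, are typical of professional antigen-presenting cells, and can be induced by interferon gamma on intestinal epithelium. Nlrc5 switches on class I genes and Ciita class II genes.

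Confluent monolayers at day 3, at day 4 and at day 5, with 3 libraries each, were set against 3 libraries of crypts. The labels trace all of them to colon of a wild-type mouse, with an age of 6 to 10 weeks, and name no further allele, transgene or agent. For the monolayers, crypt cells had first grown on collagen and were then moved to scaffolds with graded cross-linking, and each layer was lysed whole. The sources used here name no strain, and so no MHC haplotype. The sources also do not say whether libraries of 1 group came from different animals or cultures, so each p-value weighs only the spread among these samples. Total gene counts ran from 4518314 to 14290393 per library. All 8 listed epithelial markers were detected in every group, and their summed level was 10859 to 14566 CPM in monolayers and 9900.35 to 11819 CPM in crypts. Of the 8, Krt8, Krt18 and Krt19 were called higher in monolayers (30.7% of all genes were) and Epcam, Krt20, Vil1 and Cdx2 lower (32.8%). Epcam, the defining epithelial adhesion gene, averaged 1477 ± 443 CPM in monolayers and 1706 ± 203 CPM in crypts (SD, n = 9 and 3), a call lost without crypts replicate 2. Its mean was 1010, 1424 and 1996 CPM at days 3, 4 and 5. At day 5 against crypts it was not called, but it was called higher in some fits without 1 library. In the fit without crypts replicate 2 the log2 change was 0.33 (edgeR adjusted p = 0.00628). Krt20, a keratin of mature colonocytes, averaged 92.9 ± 63.6 CPM in monolayers and 1268 ± 342 CPM in crypts.

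Levels are scaled CPM, that is counts relative to the scaled size of the library, and changes are log2 fold changes ± SE between groups. A change was called where edgeR's quasi-likelihood test gave an adjusted p under 0.05 over the 12863 genes tested. Of the 51 genes, 24 had enough counts for the test, namely 2 classical, 11 nonclassical, 4 class II, 5 loading and control genes, and the other 2. A gene such as Cd74 or H2-T3 passed that filter on its crypt counts alone and so had to differ. Counts over the 24 are therefore a description of genes that were detected.

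Crypts replicate 2 stood apart in these genes. Of the 24 tested genes, 19 had their highest crypt level in it (79.2%, against 34.0% of 12157 tested genes), and 16 exceeded the mean of crypts replicates 1 and 3 by over 1.5-fold (66.7%, against 9.89%). Their median ratio was 1.88, against 1 over all genes. H2-Bl reached 39.2 CPM in that library, against 1.20 and 1.08 CPM in crypts replicates 1 and 3. H2-T3, by contrast, had 41.6 CPM in it, between 37.0 and 49.4 CPM in the others. Marker sums of other cell types moved with it in part. T cell markers summed to 33.4 CPM in crypts replicate 2, against 13.8 and 13.9 CPM in replicates 1 and 3, and fibroblast markers to 72.8 CPM, against 27.8 and 5.95 CPM. Leukocyte markers summed to 38.7 CPM there and to 35.4 and 13.9 CPM in the others. Usp18, an interferon-induced protease, stood at 46.3 CPM in crypts replicate 2 and at 4.60 and 5.59 CPM in the other crypts. The part of these differences in the results was not tested, and where a call or a direction between monolayers and crypts changed without this library, the value without it is given.

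Monolayers held B2m, Tap1, Tap2, Tapbp and Nlrc5, 5 of 11 tested nonclassical genes and 3 of 4 tested class II genes at lower levels than crypts, while neither of the 2 tested classical chains was called. Of these results, some rest on crypts replicate 2. Without it, H2-Bl and the classical chain H2-K1 were called higher, and Tap2 and H2-Q4 were not called. Between day 3 and day 5, the classical chain H2-K1, 6 nonclassical genes (the annotated pseudogene H2-K2 among them) and tapasin rose. None of the 4 tested class II genes was called. Between monolayers, as the mean of the 3 days, and crypts, 1 of 24 tested genes was called higher (4.17%, where 30.7% of all genes were called higher) and 15 were called lower (62.5%, where 32.8% of all genes were). Their median log2 change was -1.29, against -0.03 over all genes tested. The levels of 10 of 24 did not overlap, with monolayers lower (23.2% of all genes), and those of 0 with monolayers higher (22.7% of all genes). Without crypts replicate 2 the counts were 3 higher and 12 lower.

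**Figure D1:**
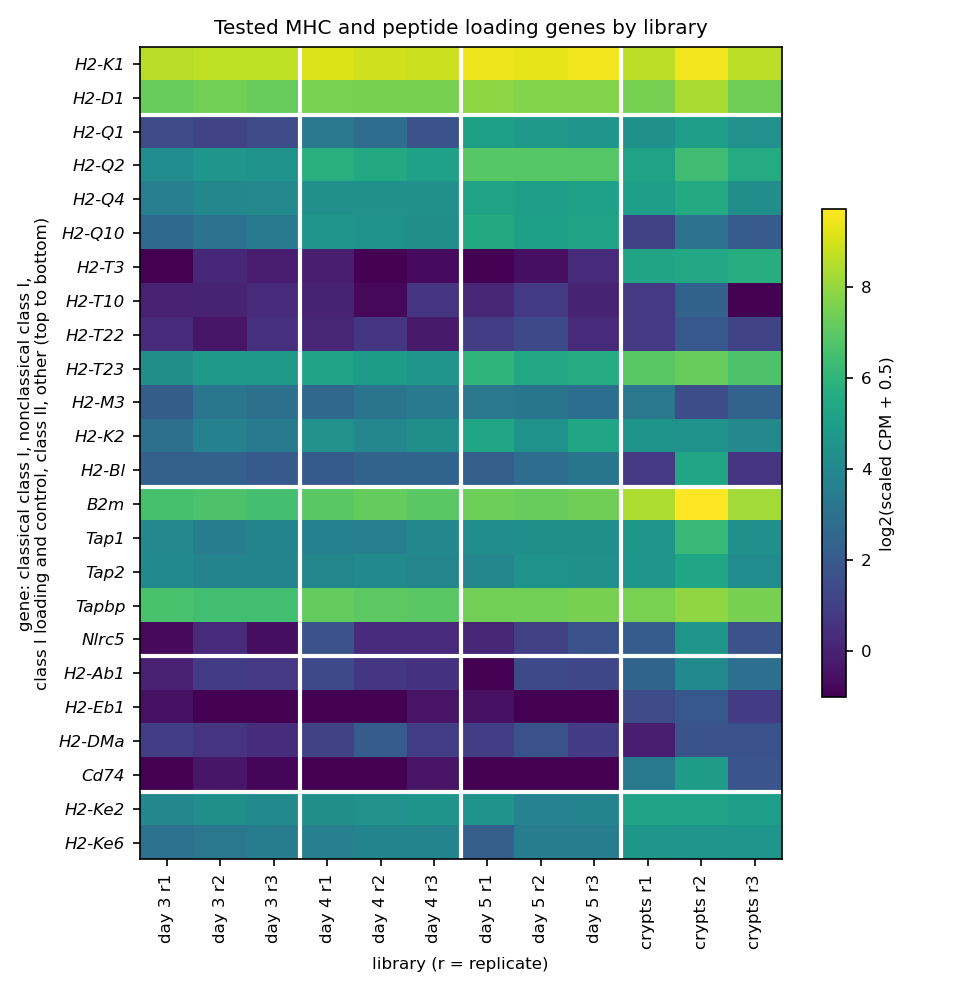
Level of each of the 24 tested genes in each of the 12 libraries, as log2 of scaled CPM plus 0.5 (colour), with genes as rows in 5 blocks (classical class I, nonclassical class I, class I loading and control, class II, other) and libraries as columns. H2-K1 is bright in all 12 libraries, H2-T3 and Cd74 are dark in the 9 monolayer libraries, and crypts replicate 2 is the brightest crypt column for most genes.

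Day 3, day 4 and day 5 share the crypts they were compared with, and their counts stand here side by side. At day 3, 0 of 24 tested genes were called higher than in crypts (28.4% of all genes) and 17 lower (27.9%). H2-Q10 was higher at day 3 at an unadjusted edgeR p under 0.05, and DESeq2 called 0 higher. At day 4, 1 gene was called higher (28.7% of all genes) and 14 lower (28.4%). At day 5, 4 were called higher (28.4% of all genes) and 10 lower (28.9%). Without crypts replicate 2, day 3 and day 4 had 2 and 3 higher. At day 5, the fit without crypts replicate 2 no longer called Tap1 and Nlrc5 lower, and it called H2-Bl and H2-D1 higher. Day 5 had 2 higher without day 5 replicate 1 or 3, and 2 higher and 16 lower without crypts replicate 3, where more of the 51 genes also passed the filter.

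The promoters of 5 of these genes are shown because they carry the short elements by which interferon, NF-kappa B and the class II enhanceosome are known to act on MHC genes. Each sequence is the 250 bases before the RefSeq transcription start in GRCm38.p6, 5′ to 3′ on the strand of the gene, with motif matches in capitals. H2-K1 lies at chr17:34000348-34000597 on the minus strand, H2-Q10 at chr17:35469839-35470088 on the plus strand, H2-T3 at chr17:36190152-36190401 on the minus strand, B2m at chr2:122147437-122147686 on the plus strand, and H2-Eb1 at chr17:34305617-34305866 on the plus strand. For H2-K1 the table holds 2 starts, of which 1 is shown.
H2-K1: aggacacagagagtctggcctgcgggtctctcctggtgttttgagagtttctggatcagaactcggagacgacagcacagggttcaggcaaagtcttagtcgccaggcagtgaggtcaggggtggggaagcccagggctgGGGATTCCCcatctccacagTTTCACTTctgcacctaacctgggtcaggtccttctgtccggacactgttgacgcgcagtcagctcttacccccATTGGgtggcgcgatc
H2-Q10: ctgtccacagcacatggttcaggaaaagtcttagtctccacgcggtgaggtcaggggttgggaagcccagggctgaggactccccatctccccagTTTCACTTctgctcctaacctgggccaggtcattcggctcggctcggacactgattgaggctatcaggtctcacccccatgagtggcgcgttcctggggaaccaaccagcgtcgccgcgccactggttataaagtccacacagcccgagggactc
H2-T3: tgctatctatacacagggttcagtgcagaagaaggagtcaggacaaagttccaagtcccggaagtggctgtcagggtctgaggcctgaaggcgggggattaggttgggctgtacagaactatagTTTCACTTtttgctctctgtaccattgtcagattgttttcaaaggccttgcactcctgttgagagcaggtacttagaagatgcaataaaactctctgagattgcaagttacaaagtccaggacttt
B2m: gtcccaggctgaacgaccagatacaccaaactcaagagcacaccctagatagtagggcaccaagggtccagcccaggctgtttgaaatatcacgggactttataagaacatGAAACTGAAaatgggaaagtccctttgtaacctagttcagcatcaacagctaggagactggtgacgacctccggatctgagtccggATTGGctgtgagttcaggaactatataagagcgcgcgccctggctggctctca
H2-Eb1: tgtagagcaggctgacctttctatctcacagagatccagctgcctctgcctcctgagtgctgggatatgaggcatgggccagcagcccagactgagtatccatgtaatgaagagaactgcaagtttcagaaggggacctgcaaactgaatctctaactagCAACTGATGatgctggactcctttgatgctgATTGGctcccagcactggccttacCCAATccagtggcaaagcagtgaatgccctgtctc
Motifs were searched on both strands, and no 2 matches overlapped in these sequences. The interferon response element TTTCACTT began 90 bases before the start of H2-K1, 155 before H2-Q10 and 126 before H2-T3. It was in 9 of the 34 genes with a promoter in the table (26.5%), against 1.62% of 27025 genes. The letters GAAANNGAA, N being any base, of a second form were in 3 of 34 (8.82%, against 8.18%), among them B2m, where they began 139 bases before the start. The kappa B element GGGATTCCC was in H2-K1, H2-D1, H2-Q6 and H2-Q7 (11.8%, against 0.352%), 110 bases before the start of H2-K1. The letters CAACNGATG of an X box, which RFX proteins bind in class II promoters, were in H2-Eb1, 90 bases before the start, and in H2-Eb2 (5.88%, against 0.474%). CCAAT, read as ATTGG on the other strand, was in 31 of 34 (91.2%, against 37.5%). Many of these genes are copies of each other, so the shares are of related sequences and describe letters, not binding.

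H2-K1 and H2-D1, the classical chains, kept in monolayers a level near that of crypts. H2-K1 had 368, 408 and 409 CPM at day 3, 552, 482 and 461 CPM at day 4, 692, 630 and 727 CPM at day 5, and 392, 724 and 394 CPM in crypts. The day 5 libraries lay above crypts replicates 1 and 3, and the 3 days did not overlap each other. H2-K1 was higher at day 5 than at day 3 by 0.79 ± 0.17 (edgeR adjusted p = 0.00222), in 3 of 3 libraries. Between monolayers and crypts it was not called (0.03 ± 0.14, edgeR adjusted p = 0.882), it stood at -0.12 without crypts replicate 1 or 3, and without crypts replicate 2 it was called higher (0.39, edgeR adjusted p = 0.000554). At day 5 it was called higher than in crypts (0.44 ± 0.17, edgeR adjusted p = 0.0315), a call that was lost without day 5 replicate 1 or 3 and without crypts replicate 1 or 3 (0.29 to 0.44), and the difference was 0.80 without crypts replicate 2. It was also lost with DESeq2 (0.41, adjusted p = 0.143), with scaling by library totals (0.25, edgeR adjusted p = 0.203), and in a fit of day 5 and crypts alone (0.44, edgeR adjusted p = 0.0905).

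H2-D1 had 147, 170 and 149 CPM at day 3, 187, 179 and 182 CPM at day 4, 231, 208 and 202 CPM at day 5, and 180, 322 and 164 CPM in crypts. Each day lay above the one before in all libraries, and the crypt spread covered days 4 and 5. Its difference between monolayers and crypts was not called (-0.28 ± 0.14, edgeR adjusted p = 0.0828), and its direction rests on crypts replicate 2. Without that library it was 0.09 (edgeR adjusted p = 0.376), and it was called lower without crypts replicate 1 (-0.40) or 3 (-0.46) and with scaling by library totals (-0.46). At day 3 it was called lower (-0.51 ± 0.17, edgeR adjusted p = 0.0163), which did not hold without crypts replicate 2 (-0.14, edgeR adjusted p = 0.253) or without day 3 replicate 1 (-0.47, edgeR adjusted p = 0.0609) or 3 (-0.48, edgeR adjusted p = 0.0574). Its difference between day 5 and day 3 was not called (0.46 ± 0.17, edgeR adjusted p = 0.0688), yet it was called without crypts replicate 1, 2 or 3 (edgeR adjusted p of 0.0482, 0.000709 and 0.0286) and in a fit of day 3 and day 5 alone (0.00162). H2-L, the third classical gene, had 9 counts in monolayers and 9 in crypts, and was not tested. Not all haplotypes carry H2-L. Of the 50-base stretches of exon, 90.4% of those of H2-K1 and 87.2% of those of H2-D1 occur in no other annotated gene.

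B2m, the light chain of every class I molecule, was lower in monolayers than in crypts. It had 94.99, 105 and 90.5 CPM at day 3, 123, 143 and 125 CPM at day 4, 161, 147 and 164 CPM at day 5, and 329, 825 and 294 CPM in crypts. No monolayer library reached the lowest crypt library. Between monolayers and crypts B2m fell by 1.94 on the log2 scale (SE 0.19, edgeR adjusted p = 4.34e-08), and by 1.31 without crypts replicate 2 (edgeR adjusted p = 2.33e-11). Its change from day 3 to day 5 was not called (0.70 ± 0.26, edgeR adjusted p = 0.0625), although the 3 days did not overlap and it was called without crypts replicate 1, 2 or 3 (edgeR adjusted p of 0.0364, 1.64e-05 and 0.0214) and in a fit of day 3 and day 5 alone (6.34e-05). Levels of different genes can be set side by side only per length of exon. On that scale B2m stood at 112, 152 and 183 CPM per kilobase at days 3, 4 and 5 and at 561 in crypts, and H2-K1 at 134, 170 and 233 at days 3, 4 and 5 and at 171 in crypts. The mean level of B2m was thus below that of H2-K1 on each day and above it in crypts.

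The peptide transporter and tapasin were lower in monolayers to differing degrees. Tap1, a subunit of the pump, had 15.8, 10.8 and 13.6 CPM at day 3, 12.48, 11.4 and 15.2 CPM at day 4, 18.3, 19.5 and 19.6 CPM at day 5, and 24.6, 75.2 and 19.9 CPM in crypts. Every monolayer library lay below every crypt library, the closest being day 5. Tap1 fell by 1.42 between monolayers and crypts (SE 0.27, edgeR adjusted p = 0.000146) and by 0.56 without crypts replicate 2 (edgeR adjusted p = 0.0185). The fall at day 5 (-1.06 ± 0.35, edgeR adjusted p = 0.016) was not called without that library (-0.20, edgeR adjusted p = 0.484). Tap2, the partner subunit, had 16.6, 13.2 and 13.6 CPM at day 3, 14.5, 16.5 and 14.2 CPM at day 4, 14.9, 21.5 and 20.1 CPM at day 5, and 24.2, 39.6 and 17.8 CPM in crypts. Day 5 overlapped the crypts. Tap2 fell by 0.76 (SE 0.20, edgeR adjusted p = 0.00272), a call lost without crypts replicate 2 (-0.37, edgeR adjusted p = 0.122).

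Tapbp had 96.7, 87.9 and 86.5 CPM at day 3, 144, 127 and 123 CPM at day 4, 172, 171 and 180 CPM at day 5, and 184, 243 and 182 CPM in crypts. It climbed towards the crypts with each day, with no overlap between days or with crypts. Between monolayers and crypts it fell by 0.67 (SE 0.09, edgeR adjusted p = 2.02e-06), and by day 5 the difference was not called (-0.22 ± 0.11, edgeR adjusted p = 0.0988). Without crypts replicate 1 or 3 the day 5 difference was called (-0.28 and -0.29). Tapbp was higher at day 5 than at day 3 by 0.95 ± 0.11 (edgeR adjusted p = 6.29e-06), in 3 of 3 libraries.

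Nlrc5, the activator of class I genes, had 0.0998, 0.717 and 0.151 CPM at day 3, 2.84, 0.747 and 0.726 CPM at day 4, 0.604, 1.52 and 2.77 CPM at day 5, and 3.80, 24.5 and 2.79 CPM in crypts. The highest monolayer library lay just above the lowest crypt library. Nlrc5 fell by 3.45 (SE 0.60, edgeR adjusted p = 6.44e-05) between monolayers and crypts and by 1.79 without crypts replicate 2 (edgeR adjusted p = 0.0371). Without that library the falls at day 4 (-1.16, edgeR adjusted p = 0.285) and day 5 (-0.99, edgeR adjusted p = 0.37) were not called. Its difference between day 5 and day 3 was not called (2.23 ± 0.99, edgeR adjusted p = 0.124). The 5 loading and control genes summed to 204 to 224 CPM at day 3, 278 to 299 CPM at day 4, 361 to 387 CPM at day 5, and 566, 1208 and 516 CPM in crypts. In the annotation, exons of Tap1 overlap Psmb9 on the opposite strand and those of Tapbp overlap Zbtb22 on the same strand. On the opposite strand, exons of Tap2 also overlap Gm15821 and Gm20496, those of Tapbp Gm19412 and those of Nlrc5 9330175E14Rik. Reads in all these overlaps are uncertain.

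**Figure D2:**
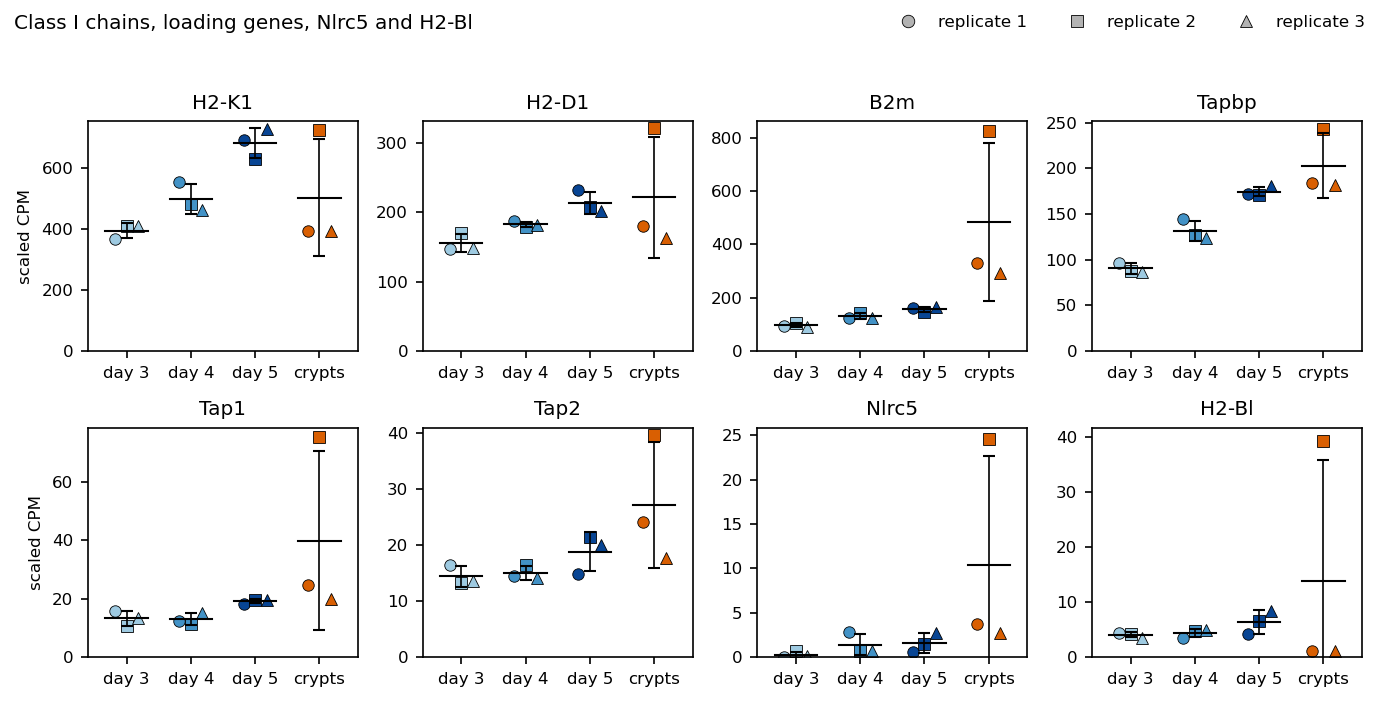
Scaled CPM of the classical chains H2-K1 and H2-D1, of B2m, Tapbp, Tap1, Tap2 and Nlrc5, and of H2-Bl, in day 3, day 4, day 5 and crypts, with 1 panel and 1 linear axis per gene. Points are libraries (symbol shape gives the replicate), and the bar and whiskers are the mean ± SD (n = 3), with whiskers ending at the axis where they would pass below 0. Crypts replicate 2 is the top crypt point in all 8 panels, and H2-K1, H2-D1, B2m and Tapbp climb from day 3 to day 5.

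Among nonclassical genes, 11 of 29 were tested. Between monolayers and crypts, 1 was called higher (H2-Q10; 9.09%, where 30.7% of all genes were) and 5 were not called. The other 5 were called lower, namely H2-Q1, H2-Q4, H2-T3, H2-T23 and H2-Bl (45.5%, where 32.8% of all genes were). H2-T3 encodes the thymus leukaemia antigen, which intestinal epithelium displays and which binds the CD8 alpha homodimer of intraepithelial T cells. It had 0, 0.645 and 0.379 CPM at day 3, 0.430, 0 and 0.121 CPM at day 4, 0, 0.179 and 0.693 CPM at day 5, and 37.0, 41.6 and 49.4 CPM in crypts. The 9 monolayer libraries held 26 counts in all and the 3 crypt libraries 1052, and the groups were far apart. H2-T3 fell by 7.23 (SE 0.38, edgeR adjusted p = 7.07e-12), and the pooled ratio was 153-fold lower in monolayers (exact 95% interval 104 to 235, for counting error only). The call held in each fit that left out 1 library, among them the one without crypts replicate 2. Because H2-T3 passed the filter on crypt counts alone, these calls had to come and do not measure how firm the difference is. Nearly all 50-base stretches of its exons (99.1%) occur nowhere else among annotated transcripts.

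H2-T23, or Qa-1, presents leader peptides of other class I chains to the CD94 and NKG2 receptors of natural killer cells. It had 18.8, 26.2 and 26.7 CPM at day 3, 36.3, 29.6 and 23.1 CPM at day 4, 62.8, 40.6 and 48.3 CPM at day 5, and 122, 146 and 105 CPM in crypts. Every monolayer library was below every crypt library. It fell by 1.91 between monolayers and crypts (SE 0.14, edgeR adjusted p = 8.49e-10) and rose between day 5 and day 3 by 1.06 ± 0.19 (edgeR adjusted p = 0.000585). H2-T10 and H2-T22, ligands of a subset of gamma delta T cells, stayed under 5 CPM in every library. The annotation lists H2-T10 as a polymorphic pseudogene. H2-T10 ranged from 0.0934 to 1.25 CPM in monolayers, against 1.20, 4.56 and 0 CPM in crypts, and H2-T22 had 0.698, 0.287 and 0.909 CPM at day 3, 0.602, 1.12 and 0.363 CPM at day 4, 1.41, 2.06 and 0.693 CPM at day 5, and 1.20, 3.39 and 1.80 CPM in crypts. Neither was called between monolayers and crypts, but H2-T10 was called lower without crypts replicate 3 (-2.16) and turned to 0.36 without crypts replicate 2 (edgeR adjusted p = 0.804), and H2-T22 was called lower without crypts replicate 1 (-1.57) or with scaling by library totals (-1.49). These 2 genes share sequence, with 49.6 and 46.5% of 50-base stretches found in 1 gene alone, so their counts are uncertain.

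The 4 tested H2-Q genes were higher at day 5 than at day 3. H2-Q1 had 2.20, 1.79 and 2.27 CPM at day 3, 9.21, 6.54 and 2.78 CPM at day 4, 33.03, 26.4 and 23.7 CPM at day 5, and 20.2, 30.9 and 21.01 CPM in crypts. It was lower than in crypts at days 3 and 4 and within the crypt range at day 5, apart from replicate 1 above it. Over the days together it fell by 1.75 against crypts (SE 0.24, edgeR adjusted p = 3.53e-06). The rise between day 5 and day 3 was 3.73 ± 0.35 (edgeR adjusted p = 6.31e-07), the largest of the 24 genes. H2-Q2 had 17.9, 23.5 and 22.3 CPM at day 3, 52.9, 44.8 and 34.1 CPM at day 4, 118, 119 and 116 CPM at day 5, and 35.0, 85.8 and 46.9 CPM in crypts. It was below the crypts at day 3 (-1.40 ± 0.24, edgeR adjusted p = 5.95e-05) and above all 3 crypts at day 5 (1.06 ± 0.23, edgeR adjusted p = 0.00063). Between day 5 and day 3 it rose by 2.46 ± 0.24 (edgeR adjusted p = 8.31e-07). Averaged over the days it was not called (-0.23 ± 0.19, edgeR adjusted p = 0.296), though without crypts replicate 1 it was called lower (-0.45, edgeR adjusted p = 0.0307) and without crypts replicate 2 it turned to 0.21 (edgeR adjusted p = 0.232).

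H2-Q10, a class I chain that lacks a membrane anchor and is known as a secreted product of liver, was the only tested gene called higher in monolayers as a whole. It had 5.79, 7.74 and 9.77 CPM at day 3, 24.4, 22.04 and 18.8 CPM at day 4, 44.3, 32.5 and 36.4 CPM at day 5, and 1.60, 7.82 and 3.70 CPM in crypts. Day 3 overlapped the crypts and days 4 and 5 did not. It rose by 2.04 ± 0.31 between monolayers and crypts (edgeR adjusted p = 1.21e-05), by 2.68 without crypts replicate 2, and by 2.27 ± 0.32 between day 5 and day 3 (edgeR adjusted p = 4.68e-05). H2-Q4 had 11.6, 15.6 and 15.9 CPM at day 3, 20.4, 20.3 and 20.1 CPM at day 4, 35.0, 31.4 and 34.6 CPM at day 5, and 30.02, 45.8 and 19.0 CPM in crypts. Its days did not overlap, while the crypts spanned days 4 and 5. It was called lower in monolayers (-0.56 ± 0.19, edgeR adjusted p = 0.0163), not without crypts replicate 2 (-0.17, edgeR adjusted p = 0.449), and rose between day 5 and day 3 by 1.22 ± 0.24 (edgeR adjusted p = 0.00122).

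The 9 H2-Q genes summed to 37.5 to 50.3 CPM at day 3, 76.4 to 107 CPM at day 4, 210 to 231 CPM at day 5, and 87.8, 173 and 91.2 CPM in crypts. Reads that align to several places were not counted, and H2-Q genes resemble each other. The share of 50-base stretches unique to the gene was 85.0% for H2-Q1, 83.9% for H2-Q2, 80.9% for H2-Q10 and 63.6% for H2-Q4. Levels within the family are therefore uncertain, and H2-Q4 also overlaps the antisense model Gm11131. H2-K2, next to H2-K1, is a transcribed pseudogene in the annotation, so its reads are not those of a known class I chain. H2-K2 had 7.28, 12.54 and 9.92 CPM at day 3, 20.5, 15.0 and 19.5 CPM at day 4, 38.5, 22.04 and 38.1 CPM at day 5, and 22.8, 21.9 and 15.7 CPM in crypts. Day 3 lay below the crypts, and day 5 above them except for replicate 2, which was among them. It rose between day 5 and day 3 by 1.71 ± 0.26 (edgeR adjusted p = 8.8e-05), while its higher level at day 5 against crypts (0.70 ± 0.25, edgeR adjusted p = 0.023) was lost without day 5 replicate 1 or 3 or crypts replicate 3.

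**Figure D3:**
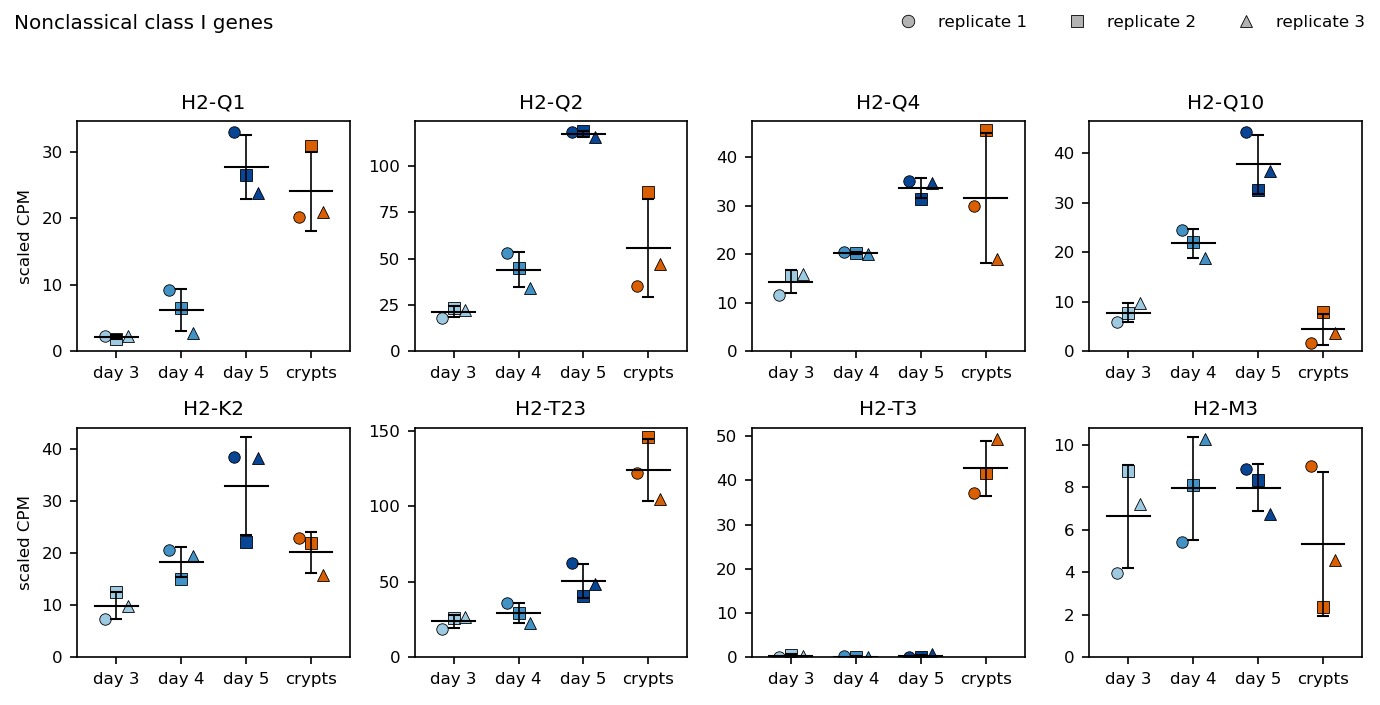
Scaled CPM of 8 nonclassical class I genes in day 3, day 4, day 5 and crypts, with 1 panel and 1 linear axis per gene. Points are libraries (symbol shape gives the replicate), and the bar and whiskers are the mean ± SD (n = 3). The 4 H2-Q genes and H2-K2 climb from day 3 to day 5, H2-T23 climbs but stays below the crypts, and H2-T3 lies near 0 on all 3 days, against 37.0 to 49.4 CPM in crypts.

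H2-M3, which presents formylated bacterial peptides, did not separate the groups. It had 3.99, 8.74 and 7.19 CPM at day 3, 5.42, 8.13 and 10.3 CPM at day 4, 8.86, 8.33 and 6.75 CPM at day 5, and 9.01, 2.35 and 4.60 CPM in crypts. Between monolayers and crypts it was not called (0.54 ± 0.37, edgeR adjusted p = 0.212), except without crypts replicate 1 (1.09, edgeR adjusted p = 0.0222). H2-Bl, a polymorphic pseudogene in the annotation, rests on 1 library. It had 4.39, 4.30 and 3.56 CPM at day 3, 3.53, 4.76 and 4.96 CPM at day 4, 4.23, 6.63 and 8.49 CPM at day 5, and 1.20, 39.2 and 1.08 CPM in crypts, so that 2 crypts lay below every monolayer and 1 above. It was called lower with all libraries (-1.51 ± 0.62, edgeR adjusted p = 0.0421) and higher without crypts replicate 2 (2.10, edgeR adjusted p = 0.000931). It was also not called in 8 of the 9 fits that left out a monolayer library, from which day 5 replicate 3 is the exception (edgeR adjusted p of the others 0.0545 to 0.0653), and not with DESeq2 (adjusted p = 0.137).

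The other 18 nonclassical genes were not tested, and 9 of them had no count in any library (H2-M1, H2-M9, H2-M10.1, H2-M10.2, H2-M10.4, H2-M10.5, H2-Q6, H2-Q9 and H2-T9). H2-T24 had 0.0998, 0.143 and 0.0757 CPM at day 3, 0.430, 0 and 1.33 CPM at day 4, 0, 0.538 and 0.346 CPM at day 5, and 0.800, 19.4 and 0.451 CPM in crypts, or 28 counts in monolayers and 158 in crypts, of which 149 were in crypts replicate 2. H2-M2 had 12 counts in monolayers and 35 in crypts, of which 32 were in crypts replicate 3. H2-Q5, a polymorphic pseudogene in the annotation, had 30 counts in monolayers and 15 in crypts. H2-Q7, which with its neighbours encodes Qa-2, had 1 count in monolayers and 10 in crypts, all of them in crypts replicate 2, and H2-Q8 had 5 in monolayers and 7 in crypts replicate 2. H2-M5 had 3 counts in monolayers and 3 in crypts, H2-M11 had 3 in monolayers, and H2-M10.3 and H2-M10.6 had 1 each, in monolayers. A gene without unique sequence can lose its reads to a copy, so a level of 0 is that of reads assigned to it alone.

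Class II genes were near 0 in monolayers and low in crypts. The 10 chain genes summed to 2.35 to 3.01 CPM at day 3, 3.03 to 4.95 CPM at day 4, 1.61 to 4.84 CPM at day 5, and 13.6, 33.9 and 11.3 CPM in crypts. Of the 12 class II genes, 4 were tested, and 3 of these were called lower in monolayers (75%, where 32.8% of all genes were). Among the genes called lower, Cd74 and H2-Eb1 had to differ, as given below. Cd74, the invariant chain that guards the class II groove, had 0, 0.287 and 0.0757 CPM at day 3, 0, 0 and 0.242 CPM at day 4, no count at day 5, and 9.61, 28.3 and 3.07 CPM in crypts. That was 7 counts in 9 monolayer libraries, against 299 in 3 crypt libraries. The groups did not overlap. Its pooled level was 161-fold lower in monolayers than in crypts (exact 95% interval 77.3 to 404), and at day 5 it was at least 91.9-fold lower, taking a floor of 3 counts over the group. The fitted change was -7.99 ± 0.78 (edgeR adjusted p = 1.35e-07), and -6.88 without crypts replicate 2 and -8.86 without day 4 replicate 3. Cd74 passed the filter on crypt counts alone, so its call had to come.

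H2-Ab1, the beta chain of I-A, kept some counts in culture. It had 0.499, 1.36 and 1.21 CPM at day 3, 2.07, 1.12 and 0.968 CPM at day 4, 0, 2.06 and 1.91 CPM at day 5, and 5.00, 16.2 and 7.03 CPM in crypts. No monolayer library reached the crypts, and the fall was 2.88 (SE 0.50, edgeR adjusted p = 5.57e-05), or 2.24 without crypts replicate 2. Its partner H2-Aa, the alpha chain, had 1 count in monolayers (0.173 CPM in day 5 replicate 3) and 100 in crypts, of which 15, 85 and 0 (3.00, 11.1 and 0 CPM) were in crypts replicates 1 to 3. H2-Aa was not tested. Its 0 fell in the crypt library with the most counts. H2-Eb1, the beta chain of I-E, had 5 counts in monolayers and 52 in crypts, with 11, 26 and 15 in the 3 crypts. Its pooled level was 39.3-fold lower in monolayers (exact 95% interval 15.8 to 126), and the fit called it lower (-5.04 ± 0.88, edgeR adjusted p = 6.11e-05). Like Cd74, H2-Eb1 passed the filter on crypt counts alone and so had to differ. Without day 3 replicate 1, day 4 replicate 3 or day 5 replicate 1, which hold those 5 counts, the value was -5.82, -5.90 and -5.79.

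The other class II genes were sparse. Ciita had 3 counts in monolayers and 43 in crypts, with 12, 22 and 9 in the 3 crypts, and a pooled level 54.1-fold lower in monolayers (exact 95% interval 17.3 to 273). H2-DMa, a chain of the DM editor that loads peptides onto class II, was the exception. It had 1.497, 1.08 and 0.833 CPM at day 3, 1.64, 3.74 and 1.45 CPM at day 4, 1.41, 2.78 and 1.39 CPM at day 5, and 0.400, 2.87 and 2.70 CPM in crypts. Its groups overlapped and it was not called (-0.27 ± 0.56, edgeR adjusted p = 0.691, and 0.03 without crypts replicate 2), but its exons overlap Brd2 on the opposite strand, from which reads cannot be separated without strand. H2-DMb1, a partner chain, had 16 counts in monolayers and 4 in crypts. H2-DMb2 had 7 counts, all in day 4 replicate 1, and H2-Eb2 had 8 in day 3 replicate 1 and 1 in crypts. H2-Oa and H2-Ob, the chains of the DM inhibitor DO, had 1 and 0 counts in monolayers and 6 and 9 in crypts, where replicate 1 held all of them. H2-Ea-ps, an alpha chain gene that is silent in several strains, had none.

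Crypt preparations can hold other cells, and in bulk RNA fewer cells of a type cannot be told apart from less RNA per cell. The 7 leukocyte markers summed to 0.806 to 3.44 CPM in monolayers and to 13.9 to 38.7 CPM in crypts, and 2 of them, Cd52 and Cd48, were at 0 in all monolayers. Of the 4 tested, Ptprc, Cd52 and Rac2 were called lower in monolayers, and Laptm5 was not called, at 1.44 ± 0.970 CPM in monolayers and 1.02 ± 1.03 CPM in crypts (SD, n = 9 and 3). Ptprc (CD45), carried by all leukocytes, had 0 to 0.604 CPM in monolayers, against 21.6, 19.7 and 9.56 CPM in crypts. It fell by 6.20 on the log2 scale (SE 0.55, edgeR adjusted p = 1.19e-08), and by 7.50 without day 4 replicate 1. The 9 T cell markers summed to 0 to 0.898 CPM in monolayers and 13.8 to 33.4 CPM in crypts. Of these, 5 of the 5 tested were called lower in monolayers (32.8% of all genes were). Among them was Cd3e, a chain of the T cell receptor complex, with 2 counts in monolayers and 50 in crypts. Cd3g, Cd8a and Gzma had no count in any monolayer. Tested markers at or near 0 in monolayers, with Ptprc, Cd52 and Rac2 among them, passed the filter on crypt counts alone and so had to differ. Their calls only describe genes detected in crypts. The 6 B cell markers reached 0.538 CPM at most in monolayers, against 1.80, 4.17 and 0.0902 CPM in crypts, and Cd79a, a chain of the B cell receptor, had 4 counts in monolayers and 5 in crypts. Of the 13 macrophage and dendritic cell markers, Emr1, Flt3 and Cd209a were at 0 in crypts, and Emr1, Tyrobp, C1qa, C1qb, Cd209a and Ccr7 at 0 in monolayers. Itgax (CD11c) had 7 counts in monolayers and 12 in crypts. That list summed to 23.7 to 51.1 CPM in monolayers, most of it the lysosomal gene Cd68, and to 5.14 to 11.1 CPM in crypts. Csf1r, the receptor of a macrophage growth factor, had 0.430 to 7.49 CPM in monolayers, against 0.200 to 0.391 CPM in crypts (2.73 ± 0.81, edgeR adjusted p = 0.00689). It and Cd68 were called higher, and Itgam (CD11b), the third tested gene of the list, was called lower. The part of such cells in the class II levels was not tested.

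**Figure D4:**
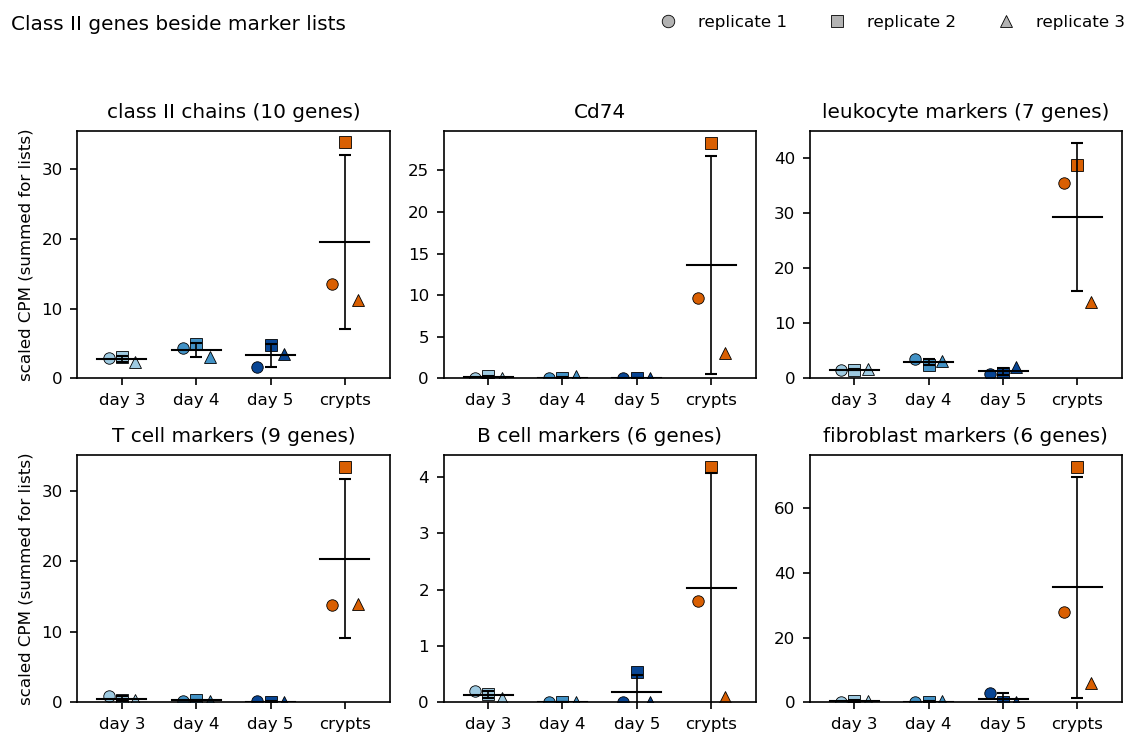
Scaled CPM in day 3, day 4, day 5 and crypts of Cd74 and, summed over the genes of each list, of class II chains and of leukocyte, T cell, B cell and fibroblast markers, with 1 linear axis per panel. Points are libraries (symbol shape gives the replicate), and the bar and whiskers are the mean ± SD (n = 3), with whiskers ending at the axis where they would pass below 0. All 6 panels are near 0 in the monolayers, and crypts replicate 2 holds the highest point of each.

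H2-Ke2 and H2-Ke6, the neighbours that present nothing, were lower in monolayers too. H2-Ke2 had 15.6, 19.5 and 17.0 CPM at day 3, 18.8, 21.02 and 22.4 CPM at day 4, 21.4, 12.9 and 13.2 CPM at day 5, and 35.2, 35.1 and 31.0 CPM in crypts. H2-Ke6 had 7.48, 8.82 and 10.8 CPM at day 3, 12.05, 13.5 and 13.2 CPM at day 4, 4.23, 11.02 and 10.7 CPM at day 5, and 24.8, 23.5 and 24.3 CPM in crypts. Neither overlapped between monolayers and crypts, and both were called lower (-0.92 ± 0.16 with edgeR adjusted p = 4.37e-05, and -1.26 ± 0.21 with edgeR adjusted p = 3.94e-05). For H2-Ke6 only 29.5% of 50-base stretches are its own, and the model Gm20427 overlaps its exons on the same strand. Crypts replicate 2 stood at 1.06 and 0.955 times the mean of the other crypts in them.

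Between days, the calls went upwards. At day 4 against day 3, 4 of 24 tested genes were called higher (16.7%, where 1.59% of all genes were), namely H2-Q1, H2-Q2, H2-Q10 and Tapbp. At day 5 against day 4, 5 were called higher (20.8%, where 3.36% were), namely H2-K2, H2-Q1, H2-Q2, H2-T23 and Tapbp. At day 5 against day 3, 8 were called higher (33.3%, where 9.9% were), namely the 6 genes just named and H2-K1 and H2-Q4. The levels of 11 of 24 did not overlap between these days, with day 5 higher (19.4% of all genes), and those of 0 with day 5 lower (21.4%). In each pair of days 0 of 24 were called lower (1.17, 4.2 and 10.5% of all genes for day 4 against day 3, day 5 against day 4 and day 5 against day 3), and so at an unadjusted edgeR p under 0.05 (0 genes) and by DESeq2 (0 genes). The medians of the log2 change over the 24 were 0.33, 0.43 and 0.68 for day 4 against day 3, day 5 against day 4 and day 5 against day 3, and stayed so with Cd74 at its bound, beside medians over all genes of 0 to -0.01. The 8 calls between day 5 and day 3 held in each fit that left out 1 library. The 1-day calls were less firm. At day 4 against day 3 all 4 were lost without day 3 replicate 2 or without day 4 replicate 1. At day 5 against day 4, H2-Q1 and H2-Q2 held throughout, and the other 3 were lost without day 4 replicate 2 or 3.

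**Figure D5:**
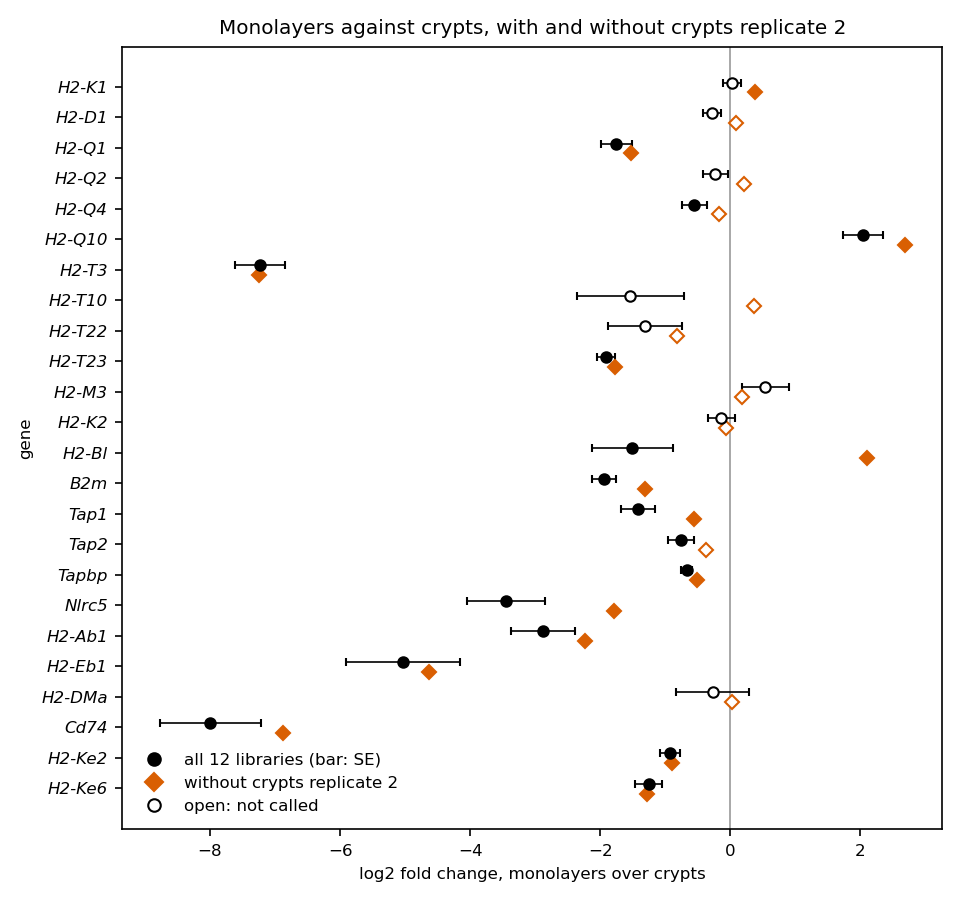
Log2 fold change between monolayers and crypts of the 24 tested genes, with all 12 libraries (circles, bar SE) and without crypts replicate 2 (diamonds). Filled symbols were called at an edgeR adjusted p under 0.05. H2-Bl is at -1.51 with all libraries and at 2.10 without crypts replicate 2, and B2m, Tap1, Nlrc5 and Cd74 move towards 0, while H2-T3, H2-T23, H2-Ke2 and H2-Ke6 hardly move.

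Further genes of the pathway followed lists chosen with earlier results known. Of 24 tested antigen processing genes, 6 were called higher and 12 lower in monolayers than in crypts (median log2 change -0.34, against -0.03 over all genes, of which 30.7% were called higher and 32.8% lower). Psmb8 and Psmb10, subunits of the immunoproteasome, fell by 5.57 (SE 0.40, edgeR adjusted p = 6.79e-10) and 3.55 (SE 0.20, edgeR adjusted p = 2.59e-11). Psmb8 had 0.303 to 1.94 CPM in monolayers, against 26.8, 80.6 and 18.3 CPM in crypts, and fell by 4.65 without crypts replicate 2. Psmb9, the third such subunit and antisense neighbour of Tap1, fell by 2.88 (SE 0.42, edgeR adjusted p = 7.26e-06). Erap1, which trims peptides for class I, fell by 2.36 (SE 0.13, edgeR adjusted p = 8.79e-12), with every monolayer library at 24.6 CPM or less and every crypt library at 85.4 CPM or more. The class II protease gene Ctss (cathepsin S) fell by 3.00 (SE 0.13, edgeR adjusted p = 4.02e-13), and the related Ctsl (cathepsin L) rose by 2.59 (SE 0.11, edgeR adjusted p = 2.60e-13). Between day 5 and day 3, 5 of the 24 were called higher (9.9% of all genes were) and 1 lower (10.5%), and Ctss rose by 2.31 ± 0.19 (edgeR adjusted p = 1.84e-07).

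Of 26 tested transcription factors and chromatin regulators linked to MHC genes, 6 were called higher and 8 lower in monolayers (30.7% and 32.8% of all genes; median log2 change -0.07). Irf8 and Irf1, interferon regulatory factors, fell by 2.91 (SE 0.17, edgeR adjusted p = 4.66e-11) and 1.54 (SE 0.10, edgeR adjusted p = 1.79e-10). Irf1 had 26.9 to 28.5 CPM at day 3, 47.3 to 56.3 CPM at day 4, 69.1 to 77.2 CPM at day 5, and 107 to 162 CPM in crypts, and rose between day 5 and day 3 by 1.42 ± 0.14 (edgeR adjusted p = 8.31e-07). Its days did not overlap. Rfx5, which binds the X box, was not called (0.24 ± 0.21, edgeR adjusted p = 0.334). Prdm1, a repressor, rose by 2.05 ± 0.40 in monolayers (edgeR adjusted p = 0.000193), or 3.25 without crypts replicate 2.

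Receptors and kinases of interferon signalling were mostly higher in monolayers. Of 13 tested genes of the pathway, 8 were called higher and 3 lower in monolayers, where 30.7% of all genes were called higher and 32.8% lower (median log2 change 0.41, against -0.03 over all genes). Ifnlr1, a chain of the interferon lambda receptor, rose by 1.74 ± 0.17 (edgeR adjusted p = 7e-08) and the kinase gene Jak2 by 1.35 ± 0.11 (edgeR adjusted p = 4.01e-09). Usp18 fell by 3.06 (SE 0.49, edgeR adjusted p = 2.54e-05), or 1.17 without crypts replicate 2. The interferon genes Ifng, Ifnb1, Ifnl2 and Ifnl3 had no count in any monolayer, and all but Ifng none in crypts.

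Of 12 tested costimulatory and butyrophilin-like genes, 7 were called higher and 5 lower in monolayers, beside 30.7% higher and 32.8% lower over all genes (median log2 change 1.21, against -0.03). Btnl1 and Btnl6, which act on intraepithelial gamma delta T cells, fell by 10.17 (SE 0.39, edgeR adjusted p = 8.16e-13) and 4.73 (SE 0.24, edgeR adjusted p = 3.49e-12). Btnl1 had 9 counts in the monolayers, at most 0.654 CPM, against 65.2, 86.8 and 88.1 CPM in crypts. It passed the filter on crypt counts alone, so its call had to come and does not measure how firm the difference is. Without day 4 replicate 2 or day 5 replicate 1 its fitted fall was larger (-11.55 and -11.20). Btnl6 rose between day 5 and day 3 by 4.13 ± 0.43 (edgeR adjusted p = 1.61e-06), or by 3.54 without day 3 replicate 2. Tnfsf9, the ligand of 4-1BB, was at least 34.6-fold higher in monolayers, since the crypts had no count. Of 9 tested class I-like genes outside the MHC, 3 were called higher and 3 lower, shares near the 30.7% and 32.8% of all genes (median log2 change -0.68, against -0.03). Fcgrt, the neonatal Fc receptor, which also pairs with B2m, had 5.01 ± 2.98 CPM in monolayers and 36.0 ± 3.59 CPM in crypts (SD, n = 9 and 3; -3.02 ± 0.22, edgeR adjusted p = 5.92e-10).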

How the data were processed

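RNA-seq libraries of 9 monolayers and 3 crypt preparations were analysed from their deposited count tables, which hold whole-number counts per gene. Per the submitters' processing notes, the authors used CASAVA 1.9, TopHat2 and HTSeq, and builds mm9 and mm10 are named with no role. Per the labels, RNA came from a column-based micro kit. The sources used here do not state the strand setting, annotation or read length. The 5 lines of each file that name no gene, among them reads aligned to several places (14.2 to 19.2% of all), were left out, and 31.7 to 43.5% of the reads in a file lay in genes.

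The genes and lists were chosen with earlier results of these data known. One model of 12 libraries in 4 groups was fitted with edgeR 4.0.16 in R 4.3.3 (quasi-likelihood test, TMM factors, filterByExpr with a minimum count of 10, Benjamini-Hochberg adjustment over 12863 genes). Monolayers against crypts averages the 3 days. That comparison was first run on simulated counts, with each gene at its mean level in all groups except a small shifted set. Those counts held far fewer changed genes than the data and no outlying library such as crypts replicate 2. They therefore cannot show how the test behaves with either. Ratios of pooled counts carry exact 95% intervals, and a group at 0 was set to a floor of 3 counts over the group (3 counts are 0.210 to 0.664 CPM in 1 library). Both cover counting error only. Members with a mean of at least 1 CPM over the 12 libraries are given per library and the others by counts. Of each list, up to 6 genes of at least 1 CPM were open to naming, by the size of their change between monolayers and crypts, beside Irf1, Rfx5, Psmb8, Psmb9, Erap1 and cell type markers, and markers at 0 were named after their values were seen. One gene open to naming is not reported here. No 2 libraries of the same group matched within counting noise, and pairs across groups were not compared in this way. Alternatives were DESeq2 1.42.0, other size factors and filters, only the groups compared, a replicate block and leaving out each library. Exon lengths, overlaps and 50-base stretches come from GENCODE on GRCm38, and 47 of 51 genes matched. Promoters come from RefSeq, where 34 matched.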

Additional observations from a re-analysis of the deposited data

How the results depend on the processing

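Results for single genes were recomputed under up to 19 alternatives, and of 3121 values 2893 kept direction and call, 74 called in neither fit changed sign or stood at 0, 71 lost and 77 gained the call, and 6 that were called in at least 1 of the fits reversed. Alternatives for single genes between days were chosen after seeing the data. Those 6 reversals came without crypts replicate 2. H2-Bl against crypts then stood at 2.10 in monolayers (range over left-out libraries -2.07 to 2.10), 1.84 at day 3 (-2.33 to 1.84), 1.95 at day 4 (-2.22 to 1.95) and 2.51 at day 5 (-1.66 to 2.51), H2-D1 at day 5 at 0.32 (-0.24 to 0.32) and H2-K1 at day 4 at 0.35 (-0.16 to 0.35). With no filter, where 18195 genes are tested, 23 members were lower in monolayers (5041 of all genes). In that fit 1 was higher at day 3 than in crypts (3727 of all genes), 7 at day 4 against day 3 (361) and 8 at day 5 against day 4 (608). More members enter that fit, so its counts cannot be set against those of the main fit. With only the groups compared, the last 2 counts were 7 and 8 (583 of 11985 and 499 of 11763 genes). Scaling by library totals left 2 higher at day 5 than in crypts (2809 of 12863 genes). This scaling gave mean sums of 355 CPM for loading genes and 23.3 CPM for H2-Ke2 and H2-Ke6 at day 5. In crypts it gave 63.7 CPM for H2-Ke2 and H2-Ke6. It moved the median of all genes from -0.03 to -0.21 and the calls over all genes from 3943 higher and 4220 lower to 3102 and 5109. It also lost H2-K1 (0.25) and H2-K2 (0.50) and called Tap2 (-0.71) and Tapbp (-0.42) lower at day 5 against crypts. Over the fits without 1 library, counts higher ran from 1 to 3 (monolayers), 0 to 2 (day 3), 1 to 3 (day 4) and 2 to 6 (day 5) against crypts, where day 5 had 8 to 16 lower, from 0 to 6 (day 4 against day 3) and from 2 to 8 (day 5 against day 4, with 0 to 1 lower). Over all genes, day 4 against day 3 gave 356 calls, 598 by DESeq2, 636 with no filter, 1144 with only the groups compared and 94 to 490 without 1 library, and day 5 against day 4 gave 972, and 536 to 1207 without 1 library. Replicate numbers did not pair the libraries (18 same-numbered pairs, correlations -0.0336 to 0.0585), and 6 of 12 libraries correlated best with their own number. With the replicate block, 1 member was higher and 14 lower in monolayers (3896 and 4100 of 12863 genes), and H2-Bl was no longer called (-0.75, edgeR adjusted p = 0.379). In that fit 10 members were higher at day 5 against day 3 (1179 of all genes) and 4 at day 5 against day 4 (398). The cause of these changes was not tested. Depth limits class II genes, most of which had too few counts for a test.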
